A study of Caenorhabditis elegans with 19 samples.

Results

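Transcription factor genes of 6 families were followed as possible targets of LIN-14, the heterochronic nuclear protein of Caenorhabditis elegans whose fall separates first-stage from second-stage cell fates. The families were basic helix-loop-helix (bHLH), T-box, forkhead, GATA, Sox and ETS. Members were chosen by gene name, with earlier results of these data known. The rule took hlh, tbx, fkh, elt, sox, ets and end genes by number, with mab-9, pha-4 and egl-27, but without elt-1 and elt-6. The 3 annotated lists named 18846 genes, of which 52 met that rule, comprising 17 bHLH, 15 T-box, 8 forkhead, 6 GATA, 2 Sox and 4 ETS genes. A RefSeq gene table held 72 genes with such names, so 20 had no assigned peak or site.

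Occupancy was measured by ChIP-seq in whole larvae of the genotype lin14(cc2841[lin-14::gfp]), in which LIN-14 carries GFP at its C terminus. Larvae of the first stage (L1) were collected 8 ± 1 hours after plating on food and those of the second (L2) after 21 ± 1 hours, with 5 ChIP and 4 input libraries per stage. About 600000 animals went into a replicate, and GFP-binding beads pulled down the chromatin. A ChIP library of untagged N2 larvae of L1 was not analysed here. The values came as merged-library peak calls for either stage and as a comparison between L1 and L2. How many of the libraries lie behind these values is not known here. No value per library was at hand, so depth is unknown and peaks carry no replicate error. In whole larvae, occupancy in fewer cells and weaker occupancy per cell cannot be told apart.

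These families carry much of the cell fate specification of the worm. bHLH proteins bind DNA as dimers, many of them with the Daughterless-type partner HLH-2, and act in neural and muscle precursors. T-box and forkhead proteins bind DNA through the domains they are named for and act in muscle, pharynx and gonad development, whereas GATA zinc finger proteins specify endoderm and epidermis. Sox proteins bind through an HMG box, and ETS proteins are known from signalling and neuronal fates. LIN-14 itself is abundant in L1 and declines as larvae go on to L2.

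LIN-14 peaks lay at most of these genes in L1. Of the 72 genes 52 (72.2%) had an assigned L1 peak, where 69.2% of 19983 protein-coding genes did, so the share was near that of all genes. The L2 list was shorter, with 8333 peaks against 37018 in L1, so absence from it does not show that binding was lost. Presence in L2 below means a call in this list. In L2 23 genes (31.9%) had a peak, against 24.5% of protein-coding genes. The number of peaks per gene was higher: 25 of the 72 genes (34.7%) had 3 or more L1 peaks, against 18.8% of protein-coding genes. Genes with any L1 peak held 2.44 on average, and protein-coding genes with a peak held 2.10. T-box genes stood at 3.27 peaks per gene with a peak, bHLH genes at 2.12, GATA genes at 2.33, Sox genes at 2.50, ETS genes at 2.00 and forkhead genes at 1.88. These are descriptions of 1 merged list, and no test of the difference was made.

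The 127 L1 peaks of the members were of ordinary strength. Their fold enrichment over control, a ratio given by the authors' peak caller for each summit, had a median of 1.84 and ran from 1.45 to 2.67, while all 37018 annotated L1 peaks had a median of 1.81. A fold enrichment of 2 or more was reached by 32 peaks (25.2%, 95% Wilson interval 18.5 to 33.4), against 24.7% of all peaks. T-box genes held 15 of these 32, bHLH genes 10, forkhead and ETS genes 3 each and Sox genes 1. None of the 14 GATA peaks reached 2 (95% Wilson interval 0 to 21.5%), and the highest, at elt-3, stood at 1.99. Family medians lay between 1.63 for Sox and 1.88 for T-box, and the differences between them were not tested.

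**Figure D1:**
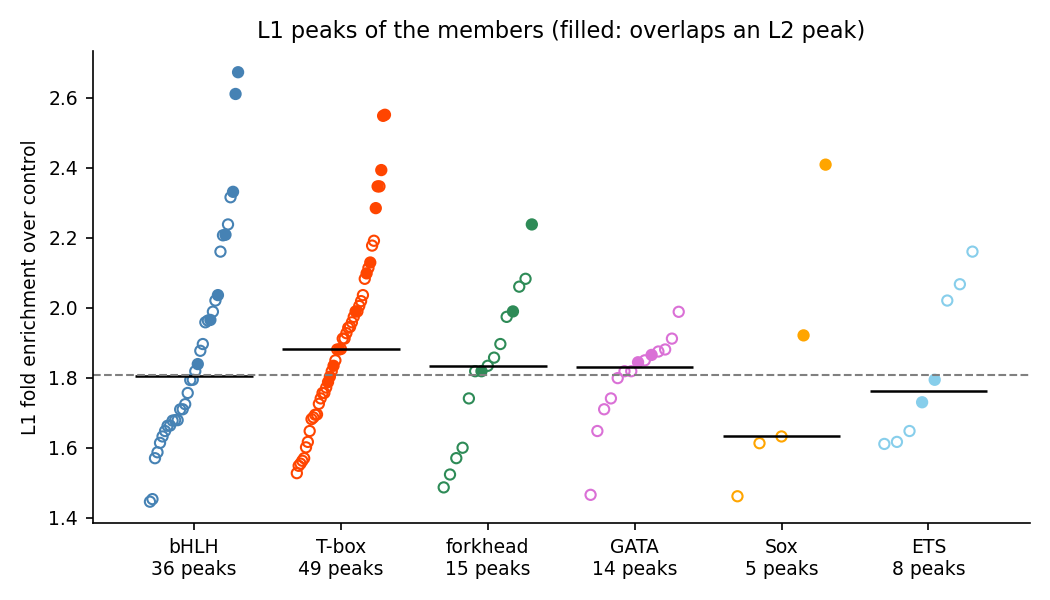
Fold enrichment over control of each L1 peak (points) by family, with the family median (black line) and the median of all L1 peaks (dashed line, 1.81). Filled points overlap an L2 peak, and the highest points of the bHLH, T-box, forkhead and Sox families are filled.

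Most of these peaks lay close to a transcript start. Within 1 kb of a start were 72 of 127 (56.7%, against 20715 of all 37018 L1 peaks), a further 33 lay at 1 to 2 kb and 13 at 2 to 3 kb. Distances here are taken without regard to side. Upstream of the start were 31 peaks (24.4%, against 30.2% of all L1 peaks), and 20 (15.7%, against 10.9%) overlapped it. Another 63 (49.6%, against 45.4%) began inside the transcript and 13 (10.2%, against 13.6%) lay wholly beyond its 3′ end. Of the 14 GATA peaks 0 were upstream and 5 overlapped the start, and of the 15 forkhead peaks 1 was upstream, whereas T-box genes had 16 of 49 upstream. Assignment to the nearest start does not show which gene a peak acts on.

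**Figure D2:**
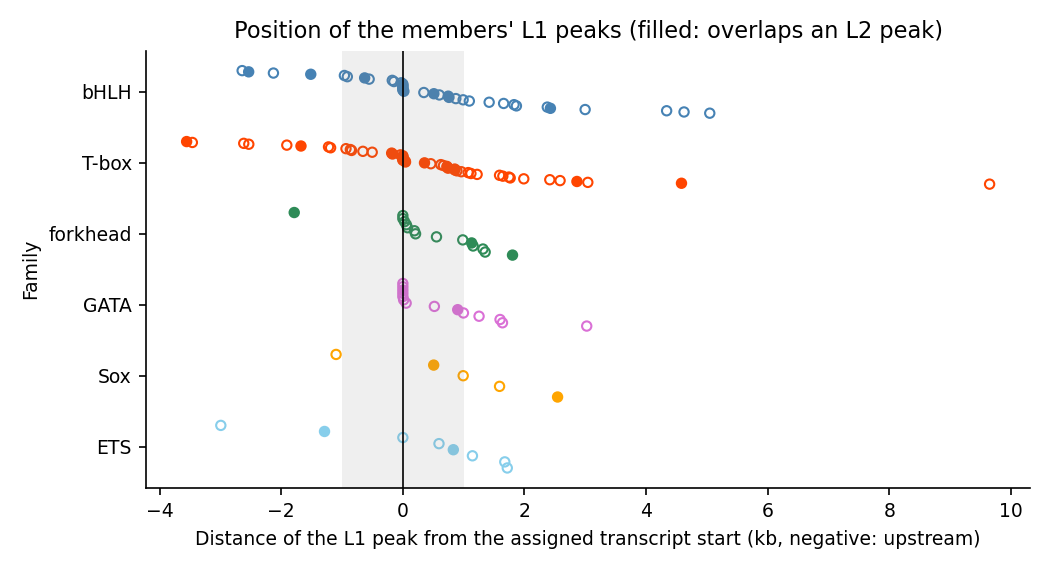
Distance of each L1 peak from the start of its assigned transcript, in kb, by family (negative values are upstream, and the grey band spans 1 kb to each side). Filled points overlap an L2 peak. Points of the GATA family lie at or downstream of the start.

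Among bHLH genes the strongest peak was assigned to hlh-28, one of the REF-1 family genes with paired bHLH domains. It had a fold enrichment of 2.67 (chromosome X, 17553408 to 17554395), and 240 of all L1 peaks ranked above it by score. It began 1606 bp beyond the 3′ end of the hlh-28 transcript, so its class as a promoter site rests on distance alone. The neighbour hlh-29, on the opposite strand with a start 2420 bp away, had 1 weak L1 peak (1.66), 3803 bp beyond its 3′ end. It also had an L2 peak (chromosome X, 17546208 to 17546431) that was the only one of the members' 27 L2 peaks outside every L1 peak. Both genes are known as near-identical copies, so reads could be split between them and their values are uncertain.

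The next bHLH gene was hlh-34, which encodes a bHLH-PAS protein. It had 4 L1 peaks, of which the strongest (2.61; chromosome V, 13707975 to 13708628) lay upstream, at -628 bp from the start, and overlapped an L2 peak (1.58). A second one at -1514 bp stood at 2.33 and overlapped an L2 peak that was assigned to a piRNA gene. The Olig-type gene hlh-16 had a peak over its start at 2.32, and the related hlh-17, known from glia, had one at 2.21 that was present in L2 as well. At hlh-2, the common dimer partner, peaks stood at 1.82, 2.04 and 2.24 (chromosome I, 7196564 to 7196943), the last at -2642 bp from a start and without an L2 peak.

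Most other bHLH genes had weaker peaks. The MyoD-type gene hlh-1 had 4 L1 peaks from 1.57 to 1.96 and none in the L2 list. The achaete-scute-type gene hlh-3 had 3 from 1.68 to 1.97, of which the strongest overlapped an L2 peak, and the Twist-type gene hlh-8 had 2 in the class of 2 to 3 kb (1.84 and 2.02), the first also present in L2. The pharyngeal gland gene hlh-6 had 3 from 1.45 to 1.90. The TFEB-type gene hlh-30, a regulator of autophagy genes, had 3 of 1.66, 1.68 and 2.16, the last annotated as 3′ UTR and 793 bp beyond the end of the assigned transcript. The single peak of hlh-10 (2.21) lay 1433 bp beyond its 3′ end. The distal tip cell gene hlh-12 had 2 (1.61 and 1.79), as did hlh-15 (1.65 and 1.99), and the Ptf1a-related hlh-13 (1.45), hlh-19 (1.88) and the REF-1 family gene hlh-26 (1.96) had 1 each. Neither list held a peak for hlh-4, hlh-11, hlh-14, hlh-25, hlh-27, hlh-31, hlh-32 or hlh-33. Of these, hlh-31 and hlh-32 are close copies of hlh-17, and a count of 0 for such copies can depend on how reads were placed.

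Among T-box genes the strongest peaks lay at tbx-41 (2.55; chromosome X, 1864423 to 1865056) and tbx-7 (2.55; chromosome III, 6023149 to 6023860). The tbx-41 peak lay at -184 bp from the start of a non-coding transcript, and the tbx-7 peak 1050 bp beyond the 3′ end. Both overlapped L2 peaks, whose fold enrichments of 1.75 and 1.70 were the highest among the members in L2. The listed site under the tbx-7 peak was assigned to its neighbour cyk-3 in the authors' deposited table (log2 fold -0.47, FDR 0.0587). The gene tbx-38, which acts with tbx-37 in early embryonic mesoderm, had 4 L1 peaks, of which the strongest (2.39) overlapped an L2 peak. Peaks of 2.35 at tbx-2, a gene needed for pharyngeal muscle, and at tbx-33 were annotated as exon 1. They lay 4581 bp and 3041 bp downstream of the transcript start, so they were not next to it. The annotated exon number may therefore not mean the first exon of the transcript. The tbx-2 peak was present in L2. A peak of 2.28 and 987 bp covered the start of tbx-11 and was present in L2. Another tbx-11 peak, of 1.79 and 1011 bp, overlapped an L2 peak assigned to F40H6.5. In all, tbx-11 had 5 L1 peaks (from 1.60), tbx-41 had 5 (from 1.62) and tbx-7 had 3 (from 1.56). tbx-37 had 3 (1.69 to 2.18), tbx-31 had 4 (1.73 to 2.11), tbx-34 had 3 (1.69 to 2.04), tbx-35 had 3 (1.55 to 2.02) and tbx-32 had 3 (1.53 to 1.88). tbx-39 and tbx-43 had 1 each, at 1.68 and 1.55. Wholly without peaks were mab-9, needed for hindgut fates, and tbx-30, tbx-36, tbx-40 and tbx-42.

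The pair tbx-8 and tbx-9, which act together in embryonic body morphogenesis, held the densest group. The genes point away from each other, with starts 5717 bp apart (chromosome III, tbx-8 from 10347481 to 10349646). tbx-8 had 8 L1 peaks, the most of any member, from 1.57 to 1.99, of which 5 lay between the genes. tbx-9 had 2 L1 peaks, 38 bp and 853 bp inside, at 2.10 and 2.13, and no L1 peak upstream was assigned to it. Both of its peaks and 3 of the 8 at tbx-8 overlapped an L2 peak, so the pair held 5 of the members' 27 L2 peaks.

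**Figure D3:**
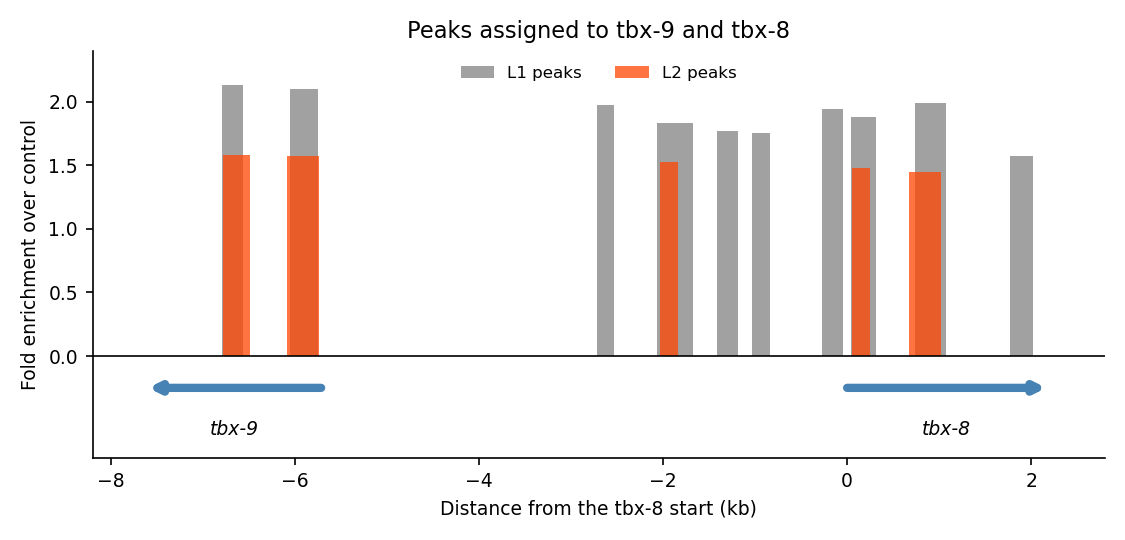
Peaks assigned to tbx-9 and tbx-8 in L1 (grey) and L2 (orange-red), placed by distance from the tbx-8 start in kb, with fold enrichment over control as height and the transcripts as arrows. L2 heights come from a separate list and are below 1.6, and 5 of the 10 L1 peaks have an L2 peak on them.

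Forkhead peaks were led by fkh-6, a gene of gonad development, with 2.24 at -1786 bp from the start (chromosome II, 4385194 to 4385770) and an L2 peak on it. Of its 2 peaks inside the gene (1.82 and 1.86) the first was also present in L2. The FoxA gene pha-4, which specifies the pharynx, had 3 L1 peaks of 1.99, 2.06 and 2.08, of which the broadest (767 bp, 1131 bp past the start of the assigned transcript) overlapped an L2 peak. At fkh-8, a regulator of ciliated neurons, 3 peaks stood at only 1.49 to 1.60 and none was present in L2. fkh-5 had 2 peaks, the stronger at 1.97, and fkh-2, fkh-7, fkh-9 and fkh-10 had 1 each, from 1.52 to 1.90. The genes fkh-3 and fkh-4 had none.

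GATA peaks were even in height. The epidermal gene elt-3 had 4 from 1.82 to 1.99, the intestinal genes elt-2 and elt-7 had 3 (1.65 to 1.85) and 2 (1.71 and 1.87), and the endoderm genes end-1 and end-3 had 1 each over the start, at 1.80 for end-1 and lower for end-3. egl-27, which encodes an MTA-type protein with a GATA-like zinc finger, had 3 from 1.47 to 1.91. Only 2 of the 14 overlapped an L2 peak, at elt-3 and egl-27. elt-4 had no peak.

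Sox and ETS genes were few. sox-3 had 1 peak 507 bp inside the gene at 2.41 (chromosome X, 14692165 to 14692423), and it was present in L2. Of the members' genes only hlh-28, hlh-34, tbx-41 and tbx-7 had a stronger peak. sox-4 had 4 from 1.46 to 1.92, of which the strongest was present in L2, and sox-2, a gene of neural progenitors, had none. ets-5, needed for the identity of carbon dioxide-sensing neurons, had a single peak at 2.16 (chromosome X, 5081299 to 5081683). ets-4, a regulator of axon regeneration, had 1 over its start at 2.02. ets-6 had 5 from 1.61 to 2.07, ets-7 had 1 at 1.73, and ets-8, ets-9 and ets-10 had none.

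Peaks that were still called in L2 lay mostly among the stronger L1 peaks. Of the 127 L1 peaks 28 (22.0%, 95% Wilson interval 15.7 to 30.0) overlapped an L2 peak, against 20.9% of all L1 peaks. When all L1 peaks were divided into 4 quantile groups by fold enrichment, the members' count was 0 of 29 in the lowest group, 4 of 26 and 10 of 40 in the middle groups and 14 of 32 (43.8%) in the highest. All L1 peaks gave 5.54%, 10.3%, 19.6% and 48.5%. By family the count was 7 of 36 for bHLH, 12 of 49 for T-box, 3 of 15 for forkhead, 2 of 14 for GATA, 2 of 5 for Sox and 2 of 8 for ETS. The Wilson interval of each family included the share of all peaks. The members' 27 L2 peaks had fold enrichments of 1.43 to 1.75, with a median of 1.58 against 1.54 in the whole L2 list.

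The comparison between stages asked where occupancy changed. In the authors' deposited table each listed site has a log2 concentration for each stage, which is DiffBind's mean read count on the log2 scale, and a false discovery rate (FDR) for their difference. Its highest FDR is 0.3, so sites with weaker evidence are outside this comparison. The members had 43 listed sites at 30 genes in the authors' deposited table, all with a lower concentration in L2. At an FDR below 0.05, 21 sites (48.8%, 95% Wilson interval 34.6 to 63.2) were lowered and 0 raised in the authors' deposited table, against 41.4% and 0.123% of all 14675 listed sites. At an unadjusted p under 0.05, 25 of the 43 were lower and 0 higher in the authors' deposited table, against 64% and 0.17% of all listed sites. The members thus lay above the share of all sites by the FDR rule and below it by the unadjusted p. The members' median log2 fold was -0.44, the same as that of all listed sites in the authors' deposited table.

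The share of all sites lay inside the interval of the members' lowered share. At least 1 lowered site lay at 17 genes of the 30 (56.7%) by the authors' deposited table, against 49.4% of genes with a listed site. An FDR below 0.01 was reached by 2 of the 43 member sites (fkh-2 and tbx-31), against 1.8% of all listed sites, and one below 0.1 by 28 of 43, against 67.9%. Of all listed sites 14638 were lower in L2, around the common median of -0.44. Relative to it, 21 of the 43 lay below the common median, and 20 of these were among the lowered. Lowered sites of the whole list had folds of -0.38 or below, so this count is no separate check of direction. The standard error implied by each fold and its p, taken as a normal test, had a median of 0.20 for the members in the authors' deposited table. The SD of their folds was 0.17, but sites with small folds are missing from a list that ends at an FDR of 0.3, so this spread is cut short and cannot be set against that error.

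**Figure D4:**
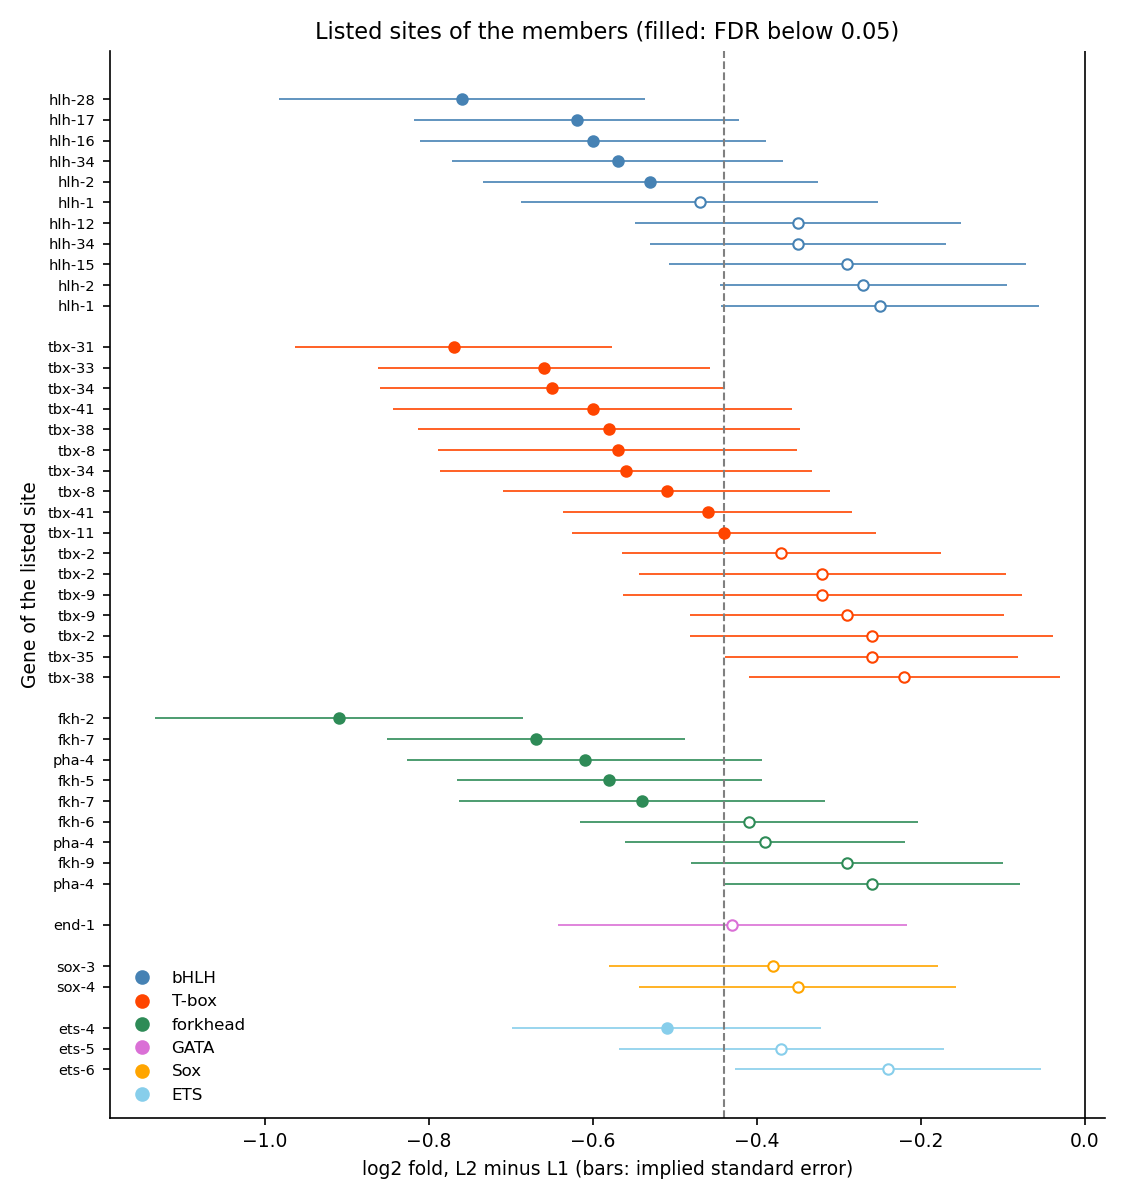
Log2 fold (L2 minus L1) of each listed member site from the authors' deposited table, sorted within families, with the implied standard error as bars. The dashed line is the median of all listed sites (-0.44), and filled points have an FDR below 0.05, which all lie at or below that median.

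The deepest drop was at the forkhead gene fkh-2, known from the cilia of olfactory neurons. At its start (chromosome X, 3742208 to 3742461) the mean read count stood at 5.69 in L1 and 4.78 in L2 on the log2 scale, a fold of -0.91 ± 0.22 (implied standard error; FDR 0.00749) in the authors' deposited table. This is a read count lower by 46.8%, which need not equal the drop in bound LIN-14. The fold differed by -0.47 from the common median. Both fkh-7 sites were lowered, at -0.67 (FDR 0.0111; chromosome IV, 5601648 to 5601994) and -0.54 (FDR 0.0465) in the authors' deposited table, the second under an L1 peak that was assigned to a piRNA gene. fkh-5 fell from 5.81 to 5.22 (-0.58, FDR 0.0192) in the authors' deposited table. At pha-4 only the site at -8 bp from a start passed (-0.61, FDR 0.0276; chromosome V, 20752783 to 20753013), under an L1 peak assigned to F38A6.7. The others stood at -0.39 (FDR 0.0562) and, 70 bp from another start, at -0.26 (FDR 0.194) in the authors' deposited table. fkh-6, with the highest concentration of the family (6.60 in L1, 6.19 in L2), did not pass (-0.41, FDR 0.086) in the authors' deposited table, nor did fkh-9 (-0.29, FDR 0.171). In all, 5 of 9 forkhead sites were lowered, with a median of -0.54.

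T-box genes had 10 of 17 sites lowered, at 7 of 10 genes, in the authors' deposited table, with a median of -0.46. tbx-31 was first: 727 bp inside the gene (chromosome X, 1672904 to 1673433) the log2 concentration fell from 6.54 to 5.77 (-0.77 ± 0.19, FDR 0.0084) in the authors' deposited table, and no L2 peak lay there. The exonic site of tbx-33 followed at -0.66 (FDR 0.0168; chromosome III, 11633300 to 11633700) in the authors' deposited table. tbx-34 had lowered sites of -0.65 (FDR 0.0197) and -0.56 (FDR 0.0433) in the authors' deposited table, the second in an intron of another gene and 7807 bp beyond the tbx-34 transcript. Both listed sites were lowered at tbx-41 (-0.46, FDR 0.0359, and -0.60, FDR 0.0436) and at tbx-8 (-0.57, FDR 0.0364, and -0.51, FDR 0.0386) in the authors' deposited table. tbx-11, the T-box site of highest concentration (7.37 in L1, 6.92 in L2), passed narrowly with a fold equal to the common median (-0.44, FDR 0.0491) in the authors' deposited table.

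Most other T-box sites did not pass. The 3 sites of tbx-2 stood at -0.37 (FDR 0.0974), -0.32 (FDR 0.196) and -0.26 (FDR 0.28) in the authors' deposited table. tbx-9 had -0.29 (FDR 0.174) and -0.32 (FDR 0.232) in the authors' deposited table, where its neighbour tbx-8 had both sites lowered. The difference between these neighbours was not tested, and each of the 4 folds has an implied standard error of 0.19 to 0.24. At tbx-38 the strong peak inside the gene had the smallest fold of all members (-0.22, FDR 0.285; 5.81 in L1, 5.59 in L2), while a weaker site near the start was lowered (-0.58, FDR 0.0424) in the authors' deposited table. A further listed site under a tbx-38 L1 peak was assigned to C24H11.1 and was lowered as well (-0.57, FDR 0.048) in the authors' deposited table. tbx-35, which specifies early mesoderm, had -0.26 over its start (FDR 0.19) in the authors' deposited table.

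bHLH genes had 5 of 11 sites lowered, at 5 of 8 genes, in the authors' deposited table, with a median of -0.47. The hlh-28 site held the highest concentration of all members, 7.72 in L1 and 6.97 in L2, and fell by 0.76 ± 0.22 on the log2 scale (FDR 0.0139) in the authors' deposited table. Sites over the starts of hlh-17 (6.61 to 5.99, -0.62, FDR 0.0191; chromosome IV, 16254255 to 16254776) and hlh-16 (6.23 to 5.63, -0.60, FDR 0.0265) were lowered in the authors' deposited table. At hlh-34 the site at -851 bp was lowered (-0.57, FDR 0.0274) and the one farther out, with the higher concentration of 6.99 in L1, did not pass (-0.35, FDR 0.0926) in the authors' deposited table. At hlh-2 the distal site was lowered (-0.53, FDR 0.0367) and the one inside the gene stood at -0.27 (FDR 0.166) in the authors' deposited table. The sites of hlh-1 (-0.47, FDR 0.0672, and -0.25, FDR 0.241), hlh-12 (-0.35, FDR 0.121) and hlh-15 (-0.29, FDR 0.225) missed the threshold in the authors' deposited table.

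GATA, Sox and ETS genes had 6 listed sites between them, of which 1 was lowered. It lay near the start of ets-4 (chromosome X, 6518853 to 6519169), from 5.74 in L1 to 5.24 in L2 (-0.51, FDR 0.032) in the authors' deposited table. ets-5 stood at -0.37 (FDR 0.102) and ets-6 at -0.24 (FDR 0.241) in the authors' deposited table. The Sox sites of sox-3 (-0.38, FDR 0.099) and sox-4 (-0.35, FDR 0.112) missed it in the authors' deposited table. Neither Sox site had an unadjusted p under 0.05 there. The only GATA site, over the start of end-1, went from 5.95 in L1 to 5.52 in L2 on the log2 scale (-0.43, FDR 0.0826, unadjusted p = 0.0437) in the authors' deposited table. Just 1 of 14 GATA peaks (7.14%) overlapped a listed site, against 38.7% of all L1 peaks and 46.7% of forkhead peaks. The folds at elt-2, elt-3, elt-7, end-3 and egl-27 are therefore not known from this table.

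**Figure D5:**
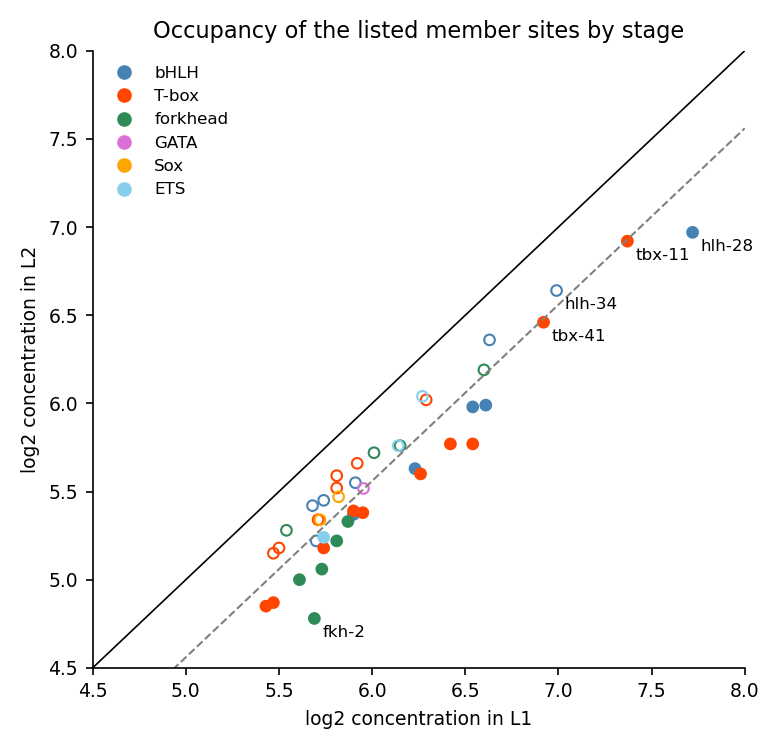
Log2 concentration in L1 and L2 of the 43 listed member sites in the authors' deposited table, coloured by family, with filled points at an FDR below 0.05. The solid line marks equal values and the dashed line the common median of -0.44. All points lie under the solid line, with hlh-28 highest and fkh-2 farthest below the dashed line.

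Family medians are given with few sites behind some of them, 3 for ETS, 2 for Sox and 1 for GATA. Median log2 folds ran from -0.54 for forkhead through -0.47 for bHLH, -0.46 for T-box and -0.43 for the single GATA site to -0.37 for ETS and -0.36 for Sox. The differences between families were not tested. Lowered shares were 58.8% for T-box (95% Wilson interval 36.0 to 78.4), 55.6% for forkhead (26.7 to 81.1), 45.5% for bHLH (21.3 to 72.0) and 33.3% for ETS (6.15 to 79.2), with 0 of 1 for GATA and 0 of 2 for Sox. Each of these 4 intervals included the 41.4% of all sites. Sites of a gene share libraries and are not replicates, so these intervals cover counting error alone.

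The 21 lowered sites had a median log2 concentration of 5.90 in L1 and 5.38 in L2, and the 22 others 5.87 and 5.54, in the authors' deposited table. Over all listed sites the lowered ones stood at 6.15 and 5.57 and the others at 5.94 and 5.58. These differences were not tested. An L2 peak lay on 7 of the 21 and on 11 of the 22, against 35.3% and 41.2% over all listed sites. Within 1 kb of a start 14 of 25 sites were lowered, at 1 to 2 kb 3 of 10, at 2 to 3 kb 2 of 4 and elsewhere 2 of 4. All listed sites gave 40.7%, 40.3%, 42.5% and 45.7% in these classes, and the members' counts per class are small. Over the start itself 6 of 8 were lowered, against 41.6% of all listed sites there. On the X chromosome 6 of 11 member sites were lowered and on autosomes 15 of 32, against 36.9% and 42.4% of all listed sites in the authors' deposited table.

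Genes of the same families that carry other names were counted in the same way. Of 30 such genes 23 had an L1 peak and 12 an L2 peak, where 69.2% and 24.5% of protein-coding genes did. Of their 33 listed sites 11 (33.3%) were lowered and 0 raised in the authors' deposited table, below the 41.4% of all listed sites, where the 48.8% of the members lay above it. Lowered bHLH sites of lowest FDR were at ref-1, a Notch-responsive gene (-0.67, FDR 0.0138), and sbp-1, the SREBP gene of lipid synthesis (-0.48, FDR 0.023), in the authors' deposited table. Among forkhead genes they were at let-381, a mesodermal FoxF gene (-0.48, FDR 0.0319), and daf-16, the FoxO target of insulin signalling (-0.49, FDR 0.0332), in the authors' deposited table. The Sox gene sem-2, of the sex myoblast fate, had a lowered site (-0.55, FDR 0.0266), as did the GATA gene egl-18 of the seam cells (-0.55, FDR 0.0327), in the authors' deposited table. None passed at the ETS gene ast-1 (-0.37, FDR 0.0926) or the T-box gene sea-1 (-0.37, FDR 0.0896) in the authors' deposited table. The site of the Mad-type gene mdl-1, singled out because its fold was the only positive one, had 0.34 (FDR 0.294) in the authors' deposited table and no L1 peak assigned to it. The left-out genes elt-1 and elt-6 had 3 and 1 L1 peaks, and none of the 3 elt-1 sites passed (-0.39 to -0.27) in the authors' deposited table.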

How the data were processed

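The submitters' processing notes name ChIPseeker, DiffBind, MACS2, SAMtools and BWA. Not given in the sources used here are genome build, tool versions, normalization and the control of the peak calls. Peak names in the deposited files show that libraries were merged by stage without outliers, so fewer libraries than the listed ones may lie behind the peaks. The deposited peak lists give each peak's fold enrichment as a ratio, its -log10 q and a score, which is 10 times that value without decimals, all by the authors. Per the file headers, the comparison of stages holds log2 concentrations and log2 folds, plus the p-value and FDR that the authors computed. Read counts per library were not analysed here.

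Members and gene lists were chosen with earlier results of these data known. Members were found by gene name, positions follow the files with the first base as 1, and starts were checked against the listed distances. The tables matched a RefSeq gene table (assembly WBcel235) at 99.8% of L1 peaks and sites and 99.9% of L2 peaks, used only for names and biotypes. Peaks and sites were compared at an overlap of 1 bp, a step tested on simulated lists. Wilson intervals (95%) of shares hold counting error alone. No test beyond the authors' own was made, because no library values were at hand. The labels do not state that replicates were grown as separate cultures, so the authors' p-values may measure technical spread. Named examples were, in each family, the members with the strongest peak, most peaks, lowest FDR, extreme folds and highest concentration. All other members were given by value, range or count. The planned promoter sequences were not used here. Scripts ran in Python 3.11.15 with matplotlib 3.10.9, SciPy 1.17.1, pandas 2.3.3 and NumPy 2.4.6.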

Additional observations from a re-analysis of the deposited data

How the results depend on the processing

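The median log2 fold of the members' sites, -0.44, was -0.40 at 1 site per gene of highest concentration, -0.49 at 1 site of lowest FDR, -0.44 in promoter classes and -0.42 with the other family genes added. The count of 21 lowered sites of 43 (48.8%, against 41.4% of all listed sites) became 2 at an FDR below 0.01, against 1.8% of all. At an FDR below 0.1 it was 28, against 67.9% of all. With the other family genes added the count was 32, but these brought 33 further sites, of which 11 (33.3%) were lowered. The members' count was 19 in promoter classes and 21 with elt-1 and elt-6. It was 20 when direction was taken against the common median, which the FDR rule nearly fixes. The 17 genes with a lowered site became 2 at an FDR below 0.01, 22 at 0.1 and 13 at the site of highest concentration. With a -log10 q of 10 or more 39 of the 127 L1 peaks and 0 of the 27 L2 peaks were left; a fold enrichment of 2 or more left 32 in L1, and a -log10 q of 5 or more left 5 in L2. The share of L1 peaks with an L2 peak, 22.0% (against 20.9% of all L1 peaks), was 16.5% at a reciprocal overlap of 50%. It was 43.8% for L1 peaks with a fold enrichment of 2 or more. Of all L1 peaks in the highest of the 4 enrichment groups (1.99 or more), 48.5% had an L2 peak. Leaving out replicates was not run, since no value per library was at hand. No paired analysis was possible because the files hold no value per library.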
